A study of Mus musculus with 15 samples.

Results

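The Iroquois (Irx) genes were described by the EZH2, FLAG and H3K27me3 intervals that fall within their 2 clusters in mouse embryonic fibroblasts. Members were all intervals of the 3 deposited lists that overlapped either of a pair of windows in build mm9, chromosome 13 from 72.04 to 73.45 Mb (Irx1, Irx2 and Irx4) or chromosome 8 from 94.27 to 95.25 Mb (Irx3, Irx5 and Irx6). Each interval was given to the gene whose position was nearest to its midpoint. The positions are known to about 10 kb. The windows held 11 of the 2466 intervals in all, namely 4 of 902 for EZH2, 2 of 438 for FLAG and 5 of 1126 for H3K27me3.

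All 3 libraries came from mouse embryonic fibroblasts whose titles give them as EED-floxed and not EED-null, and which stably expressed wild-type EZHIP from a lentivirus. Chromatin cut to mono-nucleosomes with micrococcal nuclease was immunoprecipitated with an antibody to EZH2, FLAG or H3K27me3, with 1 library for each. The other 12 libraries of the series were not analysed here, and none of the 3 lists comes from cells without EZHIP. With no replicates, no difference below has a replicate error or a test. The lists carry positions only, so read depth, height and enrichment are unknown. The narrowest interval was 2199 bp in the EZH2 list, 1199 bp for FLAG and 399 bp for H3K27me3. Whether the lists were called with the same settings is not known. Widths and edges set against each other between lists below are therefore those of called intervals, not measured extents of signal. Percentages over few intervals have exact Clopper-Pearson 95% intervals, which cover counting error only and treat intervals as independent. No RNA was measured, so neither Irx expression nor fibroblast identity could be checked.

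EZH2 is the catalytic subunit of PRC2, the complex that methylates histone H3 at lysine 27 and keeps developmental genes silent outside their proper lineages. EED, another subunit, binds the finished mark H3K27me3 and stimulates the enzyme, which lets methylation spread from sites where PRC2 is recruited. EZHIP inhibits this complex. Here FLAG was taken to report tagged EZHIP, since EZHIP is listed in the design with EZH2 and the mark. The Iroquois genes encode homeodomain transcription factors of the TALE class that pattern the nervous system, heart, limb and other organs. Mammals carry them as a pair of paralogous clusters that arose by duplication of an ancestral cluster, in which Irx1 corresponds to Irx3, Irx2 to Irx5 and Irx4 to Irx6. They are classic targets of Polycomb repression.

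Promoters of genes held by PRC2 in mammals are usually rich in CG dinucleotides, so the bases before the transcription start are shown for the 3 of 6 Irx genes matched in the RefSeq table, with CG in capitals. Irx4 and Irx3 lay at sites with all 3 signals and Irx2 had none. Each line gives the 250 bases before a RefSeq transcript start, 5′ to 3′ on the gene's strand. The coordinates are those of GRCm38.p6, another build than that of the intervals, and were not joined to them.
Irx4, GRCm38.p6 chr13:73260247-73260496, plus strand: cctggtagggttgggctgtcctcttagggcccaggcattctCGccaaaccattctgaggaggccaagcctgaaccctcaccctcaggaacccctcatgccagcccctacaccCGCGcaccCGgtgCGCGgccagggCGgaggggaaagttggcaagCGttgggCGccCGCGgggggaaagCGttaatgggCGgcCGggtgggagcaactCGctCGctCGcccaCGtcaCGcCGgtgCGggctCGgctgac
Irx3, GRCm38.p6 chr8:91801655-91801904, minus strand: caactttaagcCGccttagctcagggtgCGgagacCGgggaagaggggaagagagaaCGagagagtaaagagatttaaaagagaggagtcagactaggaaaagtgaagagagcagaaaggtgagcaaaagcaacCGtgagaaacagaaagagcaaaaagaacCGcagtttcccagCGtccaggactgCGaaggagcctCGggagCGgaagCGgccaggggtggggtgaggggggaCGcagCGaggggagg
Irx2, GRCm38.p6 chr13:72628570-72628819, plus strand: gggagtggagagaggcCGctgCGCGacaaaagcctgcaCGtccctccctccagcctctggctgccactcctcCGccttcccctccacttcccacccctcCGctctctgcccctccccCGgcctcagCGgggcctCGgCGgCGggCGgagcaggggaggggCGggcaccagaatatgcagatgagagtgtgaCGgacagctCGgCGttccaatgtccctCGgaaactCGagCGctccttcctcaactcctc
The Irx4 sequence holds 22 CG dinucleotides, Irx3 holds 13 and Irx2 holds 19. Across all 32851 promoter windows of this length in the table the median was 6 (interquartile range 2 to 16). Windows with at least as many CG made up 14.8% of the table for Irx4, 31.5% for Irx3 and 19.7% for Irx2. The observed count divided by that expected from the C and G content was 0.74 for Irx4, 0.79 for Irx3 and 0.67 for Irx2, against a median of 0.37. By count Irx2 lay between Irx3 and Irx4, and by the ratio it was the lowest of the 3. Irx1, Irx5 and Irx6 were not matched.

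EZH2 and H3K27me3 marked 4 of the 6 Irx genes, and FLAG marked 2 of them. Irx4, Irx3, Irx5 and Irx6 each had an EZH2 interval within 10 kb of the gene position and an H3K27me3 interval overlapping it. Irx4 and Irx3 also had FLAG. Irx1 and Irx2 had no interval of any list. For scale, of the positions set every 10 kb along chromosomes 8 and 13, 0.873% had an EZH2 interval within 10 kb, 0.373% a FLAG interval and 1.04% an H3K27me3 interval. These positions were set without regard to genes. The share over all genes was not computed, so they do not show how Irx genes compare with other genes. The windows were drawn around these genes with earlier results of the same lists known, so the nearness of intervals to the genes is a description.

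**Figure D1:**
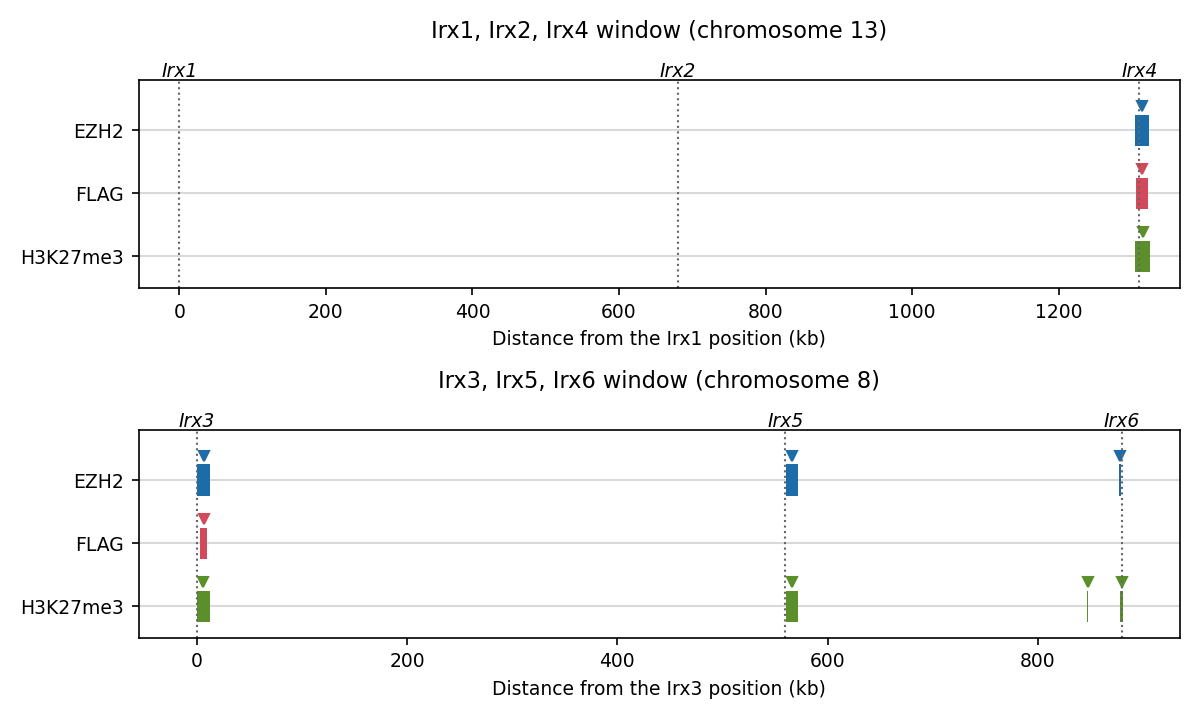
Intervals of the 3 lists (rows) across each Irx window, with the horizontal axis giving the distance in kb from the Irx1 position (top) or the Irx3 position (bottom). Bars are drawn to scale, triangles mark their midpoints so that narrow ones can be seen, and dotted lines mark the gene positions. The top window has all of its 3 intervals at Irx4, and the bottom window has intervals at all 3 genes.

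The paralogous clusters differed in how their intervals were laid out. The window of Irx1, Irx2 and Irx4, 1.41 Mb long, held 1 EZH2, 1 FLAG and 1 H3K27me3 interval, all stacked at Irx4. The window of Irx3, Irx5 and Irx6, 0.98 Mb long, held 3 EZH2, 1 FLAG and 4 H3K27me3 intervals. EZH2 covered 19399 bp of the first window and 26397 bp of the second, which is 1.38% and 2.69% of their lengths. H3K27me3 covered 19199 bp (1.36%) and 26996 bp (2.75%). FLAG went the other way, with 15799 bp (1.12%) in the window of Irx4 and 7399 bp (0.755%) in that of Irx3. Over the whole span of the intervals on each chromosome, EZH2 covered 0.210% of chromosome 13 and 0.256% of chromosome 8. H3K27me3 covered 0.221% and 0.405%. For both EZH2 and H3K27me3, cover was thus higher on chromosome 8 as a whole as well as in the window. FLAG covered 0.0779% and 0.102%, also higher on chromosome 8, which is opposite to its order in the windows.

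By paralogous pair, Irx4 and Irx6 were the only pair with EZH2 and H3K27me3 at both genes. These were also the members at the opposite ends of the range of EZH2 widths, 19399 bp at Irx4 and 2199 bp at Irx6. The Irx6 width is the narrowest in the EZH2 list. With narrow intervals left out, Irx6 loses its EZH2 interval and no pair has EZH2 at both genes. In the pairs of Irx1 with Irx3 and Irx2 with Irx5, the chromosome 8 gene carried a wide EZH2 interval and the chromosome 13 gene carried none. FLAG was present at 1 gene in each of the pairs Irx1 with Irx3 and Irx4 with Irx6, and at neither gene of the pair Irx2 with Irx5.

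Irx4, a transcription factor of the cardiac ventricles, had the widest EZH2, FLAG and H3K27me3 intervals of the 6 genes. Its EZH2 interval was chr13:73393801-73413199, 19399 bp wide, and only 4.99% of the EZH2 list was at least that wide. The FLAG interval, chr13:73395801-73411599, was 15799 bp wide, and 15 of the 438 FLAG intervals were at least that wide, itself included. The H3K27me3 interval, chr13:73394601-73413799, was 19199 bp wide, with 10.4% of its list at least as wide. All 3 spanned the Irx4 position as given, 73.4 Mb. Their lower edges lay within 10 kb of it, the precision of that position, so the exact placing is not settled.

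FLAG filled most of the Irx4 EZH2 interval. The FLAG interval began 2000 bp inside the lower EZH2 edge and ended 1600 bp inside the upper one, so that it covered 81.4% of the EZH2 interval. Over the 399 pairs of 1 EZH2 and 1 FLAG interval in the whole lists, the median ratio of FLAG to EZH2 width was 0.520 (interquartile range 0.370 to 0.651), and 15 pairs, Irx4 included, reached the Irx4 ratio of 0.814. Among the other 17 pairs with an EZH2 width within 2 kb of that at Irx4, the ratio ran from 0.084 to 0.835 with a median of 0.530, and 1 of them reached the Irx4 value. H3K27me3 began 800 bp inside the lower EZH2 edge and ended 600 bp beyond the upper one.

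Irx3, which acts in neural tube patterning, the limb bud and the cardiac conduction system, also had all 3 signals over a narrower stretch. Its EZH2 interval was chr8:94320601-94332799, 12199 bp wide, and 12.2% of the EZH2 list was at least as wide. The H3K27me3 interval, chr8:94320401-94332399, was 11999 bp wide and differed from the EZH2 edges by 200 bp below and 400 bp above. These shifts are 1 and 2 steps of the 200 bp grid on which the lists were made, so the 2 intervals had the same extent within a pair of grid steps. The FLAG interval, chr8:94322801-94330199, was 7399 bp wide and covered 60.7% of the EZH2 interval, starting 2200 bp inside its lower edge and ending 2600 bp inside the upper one. Of the other 54 pairs with a like EZH2 width, 22 had at least the Irx3 ratio of FLAG to EZH2 width, 0.607, and the median was 0.567. The FLAG cover at Irx3 was thus near the middle of the pairs of like width, whereas that at Irx4 was near the top of its own. EZH2 intervals without FLAG are not in these pairs. Of the other EZH2 intervals of like width, 54 of 65 overlapped FLAG for Irx3 and 19 of 22 for Irx4.

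**Figure D2:**
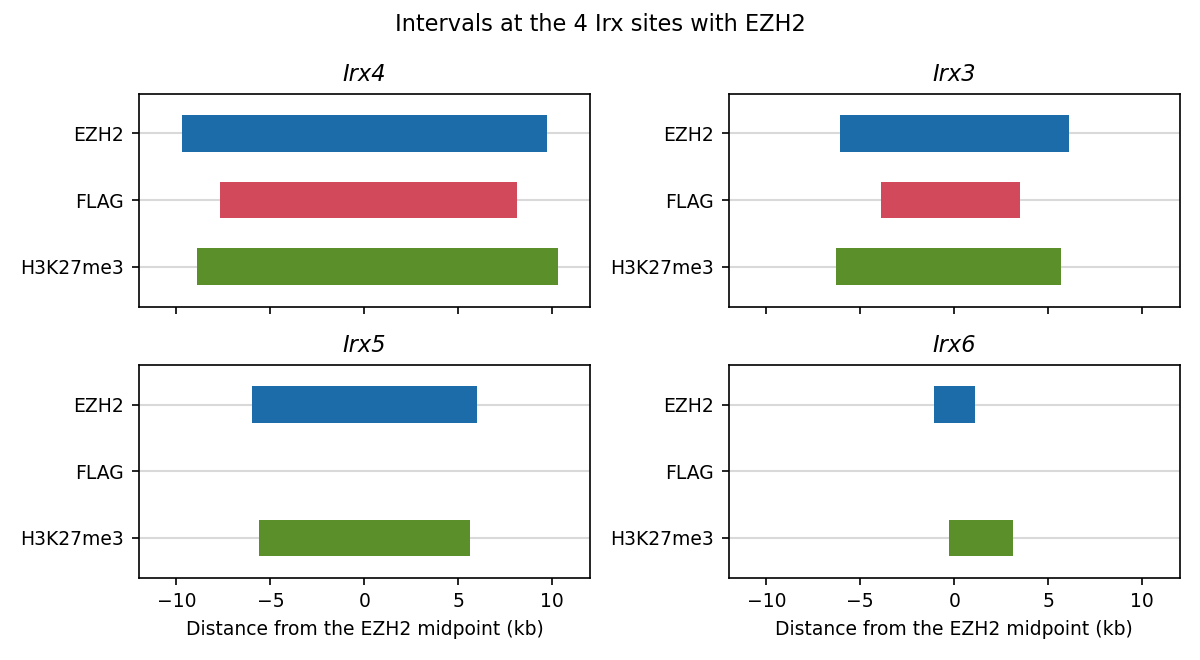
Intervals at the 4 Irx genes with EZH2, with the horizontal axis giving the distance in kb from the midpoint of the EZH2 interval and 1 row per list. FLAG lies inside EZH2 at Irx4 and Irx3 and has no bar at Irx5 and Irx6, while H3K27me3 at Irx6 reaches 2000 bp past the upper EZH2 edge; the 399 bp H3K27me3 interval below Irx6 is outside the plotted range.

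Irx5, which works beside Irx3 in heart and limb development, had EZH2 and H3K27me3 of nearly the same extent as Irx3 but no FLAG interval. Its EZH2 interval, chr8:94880201-94892199, was 11999 bp wide, 200 bp less than that of Irx3, which is 1 grid step. The H3K27me3 interval, chr8:94880601-94891799, was 11199 bp wide and lay 400 bp inside EZH2 at each edge. The nearest FLAG interval was that of Irx3, 549.8 kb from the Irx5 position. Among the other 70 EZH2 intervals within 2 kb of the Irx5 width, 60 overlapped FLAG, which is 85.7% (75.3 to 92.9%). Of the 112 EZH2 intervals at least as wide as that of Irx5, 15 had no FLAG, Irx5 included, and all 15 overlapped H3K27me3. Absence from the FLAG list shows only that no interval was called, since signal under the calling threshold cannot be seen in these lists.

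Irx6, a gene known from retinal bipolar cells, had the smallest footprint of the 4 genes with EZH2. Its EZH2 interval, chr8:95197201-95199399, was 2199 bp wide, the narrowest width in the EZH2 list, which 40 intervals share. None of those 40 overlapped FLAG, and 25 of them overlapped H3K27me3 (62.5%), as Irx6 did. The H3K27me3 interval, chr8:95198001-95201399, was 3399 bp wide and shared 1399 bp with EZH2, beginning 800 bp inside its lower edge and ending 2000 bp beyond its upper one. Its width was 1.546 times that of EZH2, while the other 22 pairs at this EZH2 width ran from 0.181 to 1.364 with a median of 0.727. Irx6 was also the only Irx gene where H3K27me3 was wider than EZH2, the ratios being 0.990 at Irx4, 0.984 at Irx3 and 0.933 at Irx5, against a median of 0.900 over 764 pairs.

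A further H3K27me3 interval near Irx6 stood without the other signals. It was chr8:95167201-95167599, 399 bp wide, and lay 30.4 kb below the H3K27me3 interval at Irx6. This width is the narrowest in the H3K27me3 list, and of the 88 intervals that have it 9 overlapped EZH2 (10.2%) and none overlapped FLAG.

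**Figure D3:**
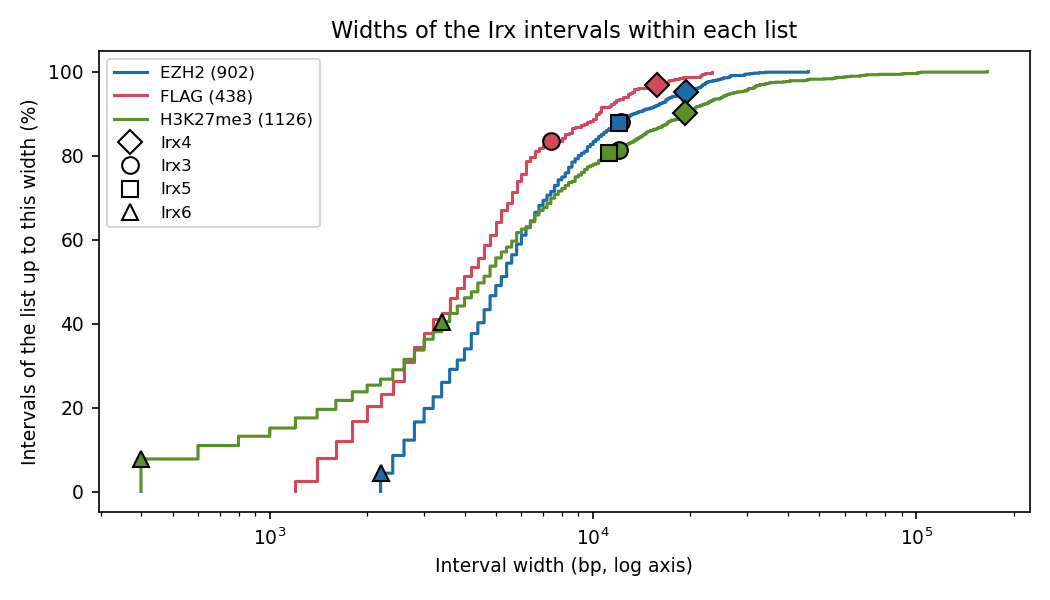
Share of each list (vertical axis, percent) with a width up to that on the horizontal axis (bp, log axis), as 1 line per list with its number of intervals, and the Irx intervals marked by gene. Irx4, Irx3 and Irx5 sit in the upper part of each curve they are on. The 2199 bp EZH2 and 399 bp H3K27me3 intervals of Irx6 are at the narrowest width of their lists. The 3399 bp H3K27me3 interval of Irx6, which overlaps its EZH2 interval, has 61.9% of its list at least as wide.

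Among the Irx intervals, EZH2 overlapped FLAG in 2 of 4 (exact interval 6.76 to 93.2%), beside 45.5% of the whole EZH2 list. H3K27me3 overlapped 4 of 4 EZH2 intervals (39.8 to 100%), beside 95.2%. EZH2 overlapped 4 of 5 H3K27me3 intervals (80.0%, 28.4 to 99.5%), beside 71.7%, and FLAG overlapped 2 of 5 (40.0%, 5.27 to 85.3%), beside 36.1%. Both FLAG intervals overlapped EZH2 and H3K27me3, beside 96.6% and 98.6% of the FLAG list. Each of these shares is near that of its whole list, and with so few intervals the counts say nothing particular about the Irx genes.

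**Figure D4:**
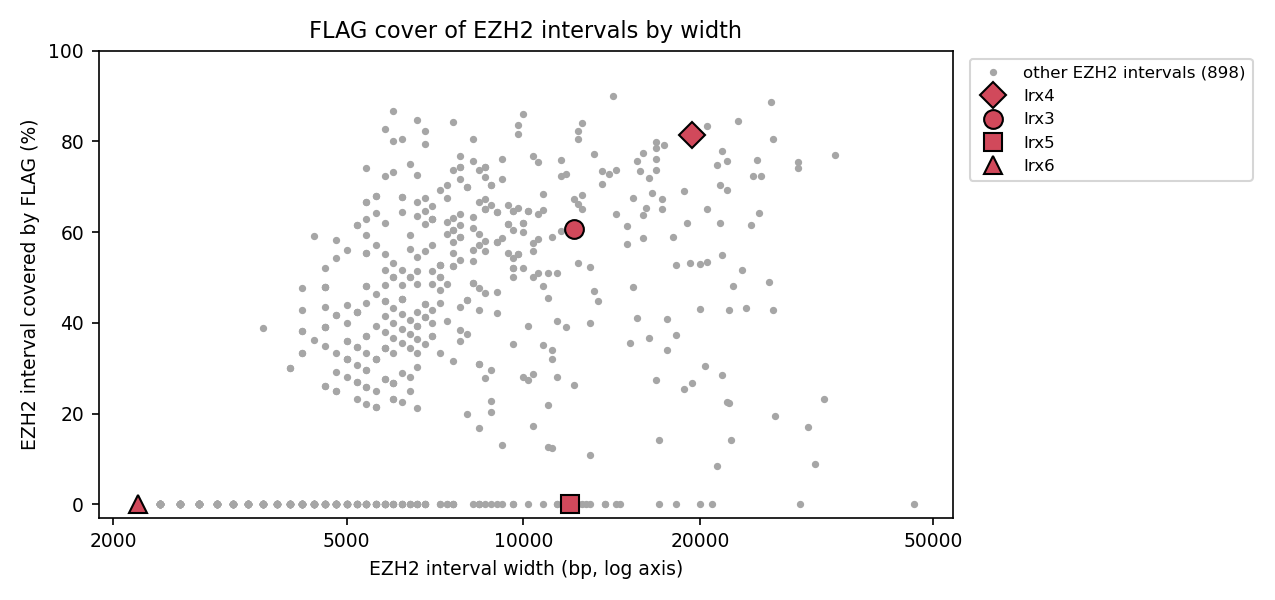
Percent of each EZH2 interval covered by FLAG (vertical axis) against its width in bp (log axis), for the 4 Irx intervals and the other 898 EZH2 intervals as grey points. Irx4 is at 81.4% and Irx3 at 60.7%, while Irx5, 200 bp narrower than Irx3, is at 0 with Irx6.

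Irx1, which takes part in heart, lung and kidney development, and Irx2, expressed with it in many tissues, lay in a stretch of chromosome 13 with no interval of any list. This stretch ran for 3.51 Mb, from the interval that ends at 69880599 to the one that begins at 73393801, the EZH2 interval of Irx4. The Irx4 EZH2 interval was also the nearest to both genes, 1303.8 kb from the Irx1 position and 623.8 kb from the Irx2 position. Of the 1154 gaps left between intervals when the 3 lists were pooled, 18.6% were at least as long, against a median gap of 0.888 Mb. The empty stretch was therefore longer than the median gap, but not rare. Gaps were counted equally here, whereas a given position falls more often in a long gap. The 18.6% is thus not the share of positions that lie in such gaps. Whether Irx1 and Irx2 carried these marks before EZHIP was expressed was not measured here.

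Between the marked genes of the chromosome 8 cluster the lists were empty apart from the 399 bp H3K27me3 interval. The EZH2 intervals of Irx3 and Irx5 were 547.4 kb apart and those of Irx5 and Irx6 were 305.0 kb apart. In the order of genes in RefSeq (GRCm38.p6), no protein-coding gene lies between neighbouring Irx genes of either cluster. Between Irx3 and Irx5 there are 8 other genes, 7 of them long noncoding RNAs, among them Irx3os and Crnde next to Irx3 and Irx5. Outside the windows, the next EZH2 interval was 233.2 kb above that of chromosome 8 and 1396.6 kb below it. For chromosome 13 these distances were 3.07 Mb above and 2.16 Mb below, so by EZH2 the chromosome 13 window was the more isolated. By FLAG the order was reversed. The next FLAG interval was 2.16 Mb below and 19.7 Mb above the chromosome 13 window, and 2.70 Mb below and 28.4 Mb above the chromosome 8 window. Each distance runs from a window edge to 1 interval. Chromosome 13 as a whole was the sparser, with 0.269 EZH2 intervals per Mb against 0.397 on chromosome 8. For FLAG these densities were 0.104 and 0.198.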

How the data were processed

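Chromatin immunoprecipitation with sequencing was done on 15 libraries, 1 per group by the sample titles, and the lists of 3 were used. The submitters' processing notes name Bowtie 1.0.0, deepTools and build mm9. Which peak caller, thresholds and control library were used is not given in the sources used here. In each list the authors deposited the start and end of each interval in bp, on a 200 bp grid, with no score and 1 list per library. Starts are printed counted from 1.

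Members, windows and gene positions were chosen with earlier results of these data known, and all 6 Irx genes are named. Overlap meant at least 1 bp shared. Pairs are 1 interval of each list that overlap each other and no other interval of those lists. Widths, shares, gaps and edges were computed with Python 3.11.15, numpy 2.4.6 and scipy 1.17.1, and the overlap code was tested on simulated data. The comparison with EZH2 intervals of like width was made after the widths were seen. Promoters and gene order come from RefSeq, GRCm38.p6. Annotation of mm9 was not used here, so positions within exons or introns are not given.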

Additional observations from a re-analysis of the deposited data

How the results depend on the processing

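The counts per window, per gene and per overlap and the bases covered, 33 values in all, were each recomputed under 1 or 2 alternatives, which gave 48 alternative values. The alternatives were a 50% overlap of the shorter interval or a distance of 5 kb in place of 1 bp, windows widened by 100 kb, assignment by nearest edge, joining within 5 kb, and leaving out intervals up to the lower quartile of width. None moved by more than 1.5 times and 44 were identical, but many of the alternatives could not change a value. The nearest interval outside a window was 233.2 kb away, and neighbours within a list were at least 30.4 kb apart. Intervals that did not overlap lay much further than 5 kb apart, and the genes lie far apart beside the interval widths. The 4 values that changed came from leaving out narrow intervals in the chromosome 8 window. This removed the EZH2 interval of Irx6 (2 in place of 3 intervals, 24198 in place of 26397 bp), a change of count that stood at the 1.5 limit. It also removed the 399 bp H3K27me3 interval (3 in place of 4, 26597 in place of 26996 bp). No paired analysis was possible because each group has 1 library. Without scores no stricter threshold could be tried, and without read depth a missing interval cannot be told from weak signal.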
